A study of Mus musculus with 4 samples.

Results

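DNA repair genes were followed on 4 Affymetrix expression arrays of mouse bone marrow cells, each hybridised with RNA of 1 sample. The set comprised 47 listed genes of 7 repair groups, and 46 of them had a probe set carrying their symbol alone in the platform's annotation table, out of 18193 genes in the series. Xrcc2 was not analysed here. Where a gene had several such probe sets, the probe set with the highest mean log2 signal over the 4 arrays was used. The 46 genes comprised 13 of homologous recombination, 6 of end joining, 4 of mismatch repair, 8 of nucleotide excision repair, 6 of base excision repair, 4 of checkpoint signalling and 5 of the Fanconi anaemia group.

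The starting cells were LSK cells, a sorted bone marrow fraction without lineage markers that carries Sca-1 and c-kit and is rich in blood stem and progenitor cells. The β-catenin day 3 array held LSK cells at day 3 of transduction with a β-catenin retrovirus, and the eGFP day 3 array, the control, LSK cells given an eGFP retrovirus and taken at the same time. The DKmix day 50 and DKmix day 300 arrays held β-catenin-transduced LSK cells after 50 and 300 days of culture. All 4 samples were grown in the same serum-containing medium with IL-3, SCF, Flt3 and IL-11. The mouse strain, the age and the number of animals, the form of β-catenin and the number of clones in the cultures are not known from the labels. The study asked which genes act downstream of β-catenin when blood stem cells become immortal. With 1 array per group there was no replicate, no test was possible, and a difference between arrays is a difference between single samples.

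DNA repair is divided by the lesion it removes. Breaks of both strands are rejoined either with a sister chromatid as template (homologous recombination, active once DNA has been copied) or end to end; wrongly paired bases are removed by mismatch repair; bulky and ultraviolet lesions by nucleotide excision; and damaged single bases by base excision. The ATM and ATR kinases report breaks and stalled forks to CHEK1 and CHEK2, and the Fanconi anaemia proteins unhook strands that have been crosslinked. Many of these genes are transcribed most in cycling cells, and blood stem cells lacking Fanconi proteins or ATM are known to be lost with time.

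Values are linear signal intensities, and 4 values in a row are always in the order β-catenin day 3, eGFP day 3, DKmix day 50, DKmix day 300. Signals up to 48.3, the pooled median signal, were raised to that value, here called the floor, before ratios were formed. Where 1 of the arrays was at the floor, the ratio is only a bound and carries the words "at least", and where both were, the gene was left out of the comparison. Of the 46 genes, 36 were above the floor on all 4 arrays. Bard1, the partner of BRCA1, was on no array above it (42.9, 43.3, 3.8 and 21.1). On the single arrays 44, 44, 39 and 44 of the 46 genes were above the floor, and 61.6%, 62.0%, 64.3% and 56.6% of all genes. Genes were counted as higher or lower from 2-fold upward. By this count 34 genes passed 2-fold in at least 1 of 5 comparisons and 12 in none, among them Bard1, which was not measured. The share of all genes that passed in at least 1 comparison was not counted, so these numbers carry no background. Intensities of different genes were not compared, since probe sets differ in brightness. For some genes both DKmix values are described as above or below both day 3 values without a fold limit. The share of all genes with such an order was not counted, so it only describes the genes named.

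Some features of the arrays as a whole touch every result. Ctnnb1, which encodes β-catenin, was 5.93-fold and 2.26-fold higher on the β-catenin than on the eGFP day 3 array by 2 probe sets and 0.949 times by the brightest. The 3′ to 5′ signal ratio of Gapdh, which grows as RNA is degraded or copied short, was 1.18, 4.14, 4.96 and 1.06, and that of β-actin 1.32, 1.83, 3.41 and 1.20. By Gapdh, the β-catenin day 3 array resembled DKmix day 300 (both low) and the eGFP array resembled DKmix day 50 (both high). Cell type markers differed widely. Summed intensities of 10 neutrophil genes were 13190, 103010, 715.9 and 209.3, and those of 14 mast cell genes 4771, 1138, 184860 and 83135. The mast cell gene Hdc was lowest at day 50 (233.8, 82.4, 23.0 and 1514). Sums of 10 macrophage and dendritic genes were 24653, 19789, 666.4 and 5950, with Cd68 at 5407 on the last. Those of 9 stem and progenitor genes were 7367, 3252, 15171 and 11023. Erythroid and lymphoid sums did not exceed 615.5. Above the floor were 8, 10, 3 and 1 of the neutrophil genes and 9, 10, 12 and 12 of the mast cell genes, with Tpsab1, a mast cell tryptase, on no array. Kit, which defines LSK cells and mast cells, read 82.9 and 55.8 at day 3 and 3460 and 1263 in DKmix cells, and Flt3 was below the floor on all 4 arrays. In RNA from whole samples, fewer cells of a type and less RNA per cell cannot be told apart.

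The clearest departure of the repair genes from all genes lay on the DKmix day 50 array. Compared with β-catenin day 3, 19 of 45 measured repair genes were at least 2-fold lower there (42.2%, against a background of 15.7% of all measured genes) and 3 were higher (6.67%, background 16.1%). Their median log2 ratio was -0.61, and that of all genes 0.07. Base excision and mismatch repair genes had the lowest medians of the groups, at -1.81 and -1.93, and nucleotide excision genes the highest, at 0.35. These medians rest on 6, 4 and 8 listed genes. Genes of the same groups outside the list had medians of -0.42 (base excision), -0.55 (mismatch repair) and -0.48 (nucleotide excision). Of those genes, 3 of 10, 1 of 4 and 3 of 12 were lower, and 2, 1 and 1 higher. By day 300, 9 of the 45 measured listed genes were lower (20.0%, background 14.4%), with 3 higher (6.67%, background 14.0%) and a median of -0.32 (all genes -0.08).

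The 19 of 45 became 12 of 39 when the probe sets of each gene were averaged (30.8%, all genes 15.7%) and 11 of 38 with a floor at percentile 75 (28.9%, all genes 15.8%). With arrays scaled on the hybridisation controls, which lowers all genes (median -0.73), 58.7% of the repair genes and 39.3% of all genes were lower. The Gapdh ratio was 1.18 on 1 array of this comparison and 4.96 on the other. The summed mast cell genes differed as well, at 4771 and 184860. Across all arrays these sums did not follow the Gapdh ratio. DKmix day 300 had the lowest ratio (1.06) with a sum of 83135, and eGFP day 3 a ratio of 4.14 with the lowest sum (1138). The part of the Gapdh ratio or of the mast cell genes in the result was not tested.

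**Figure D1:**
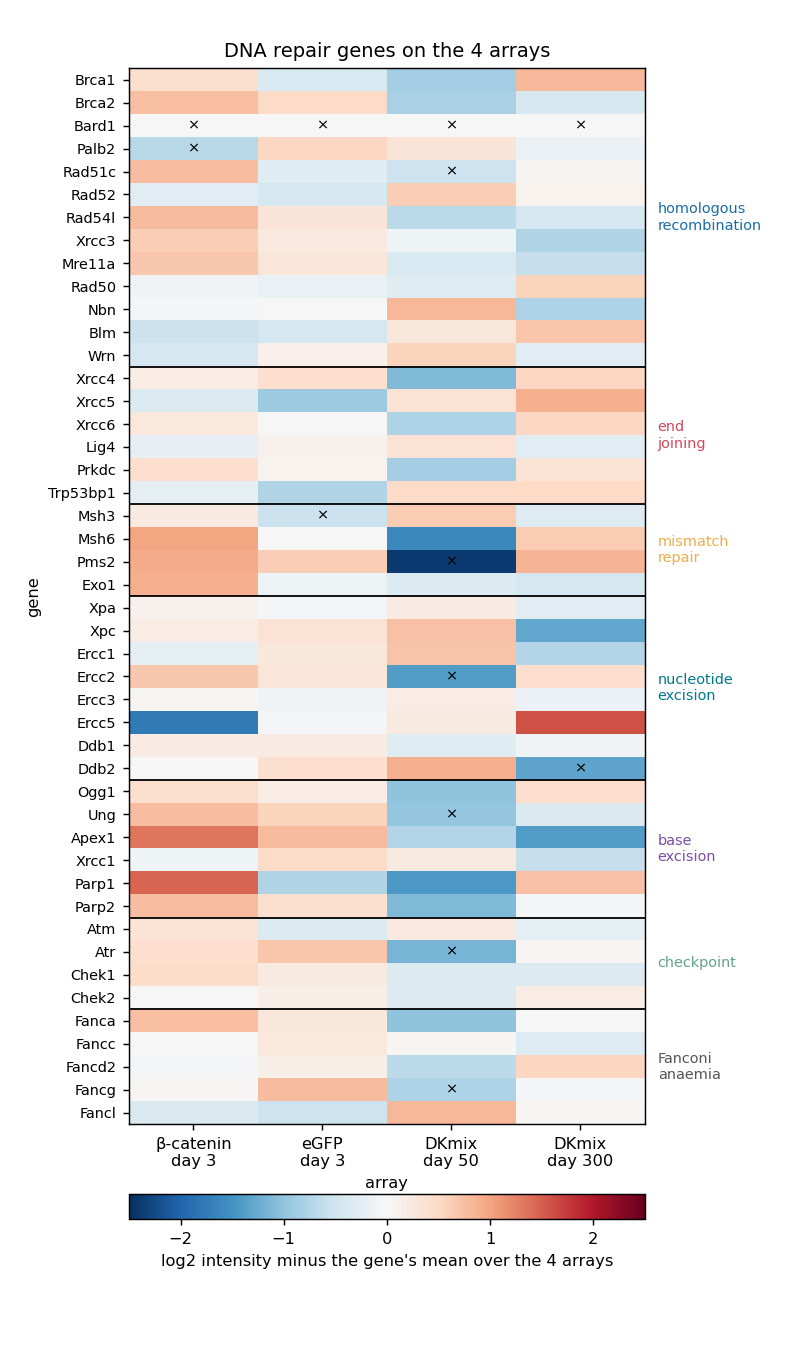
Heat map of the 46 repair genes (rows, by repair group) on the 4 arrays (columns), 1 array per column. Colour is the log2 intensity, after the floor, minus the gene's mean over the arrays (scale ends at ±2.5), and a cross marks a value at or below the floor. Blue cells are most frequent in the DKmix day 50 column, with Pms2 the darkest, and Ercc5 runs against them at day 300.

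The other comparisons place that result. At day 3, 3 of 45 repair genes were higher on the β-catenin array (6.67%, background 10.2%) and 2 lower (4.44%, background 9.42%), so the genes passed 2-fold no more often than all genes, and the median was 0.21. DKmix day 50 against eGFP day 3, the pair with high Gapdh ratios, gave 12 lower (26.7%, background 15.0%) and 5 higher (11.1%, background 15.6%), with a median of -0.35 (all genes 0.03). DKmix day 300 against DKmix day 50 gave 13 higher (28.9%, background 15.1%) and 4 lower (8.89%, background 15.9%), with a median of 0.24 (all genes -0.14). Several of these comparisons share an array, so their counts are not independent.

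Scaling, the floor and the probe set rule changed some of these splits. On the hybridisation control scale all genes shifted as well. There, 7 repair genes were higher at day 3 with β-catenin (15.2%, all genes 21.4%) and 2 lower (4.35%, all genes 6.88%). For DKmix day 50 against eGFP, 22 were lower (47.8%, all genes 27.4%) and 0 higher (all genes 7.56%). For DKmix day 300 against β-catenin day 3, 30 were lower (65.2%, all genes 45.1%) and 1 higher (2.17%, all genes 4.17%). With arrays scaled to equal medians that comparison gave 4 higher (8.89%, all genes 20.1%) and 5 lower (11.1%, all genes 9.55%). With plain _at probe sets only, its lower share was 12.8% (all genes 13.6%). A floor at percentile 25 gave 21.7% (all genes 24.9%) and no floor 21.7% (all genes 26.1%). With probe sets averaged, 12.5% were higher at day 300 than at day 50 (all genes 14.2%). With a floor at percentile 75, 10.8% were lower at day 50 than on eGFP (all genes 14.6%). Under the other alternatives of scaling, floor and probe set both of these shares exceeded those of all genes.

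**Figure D2:**
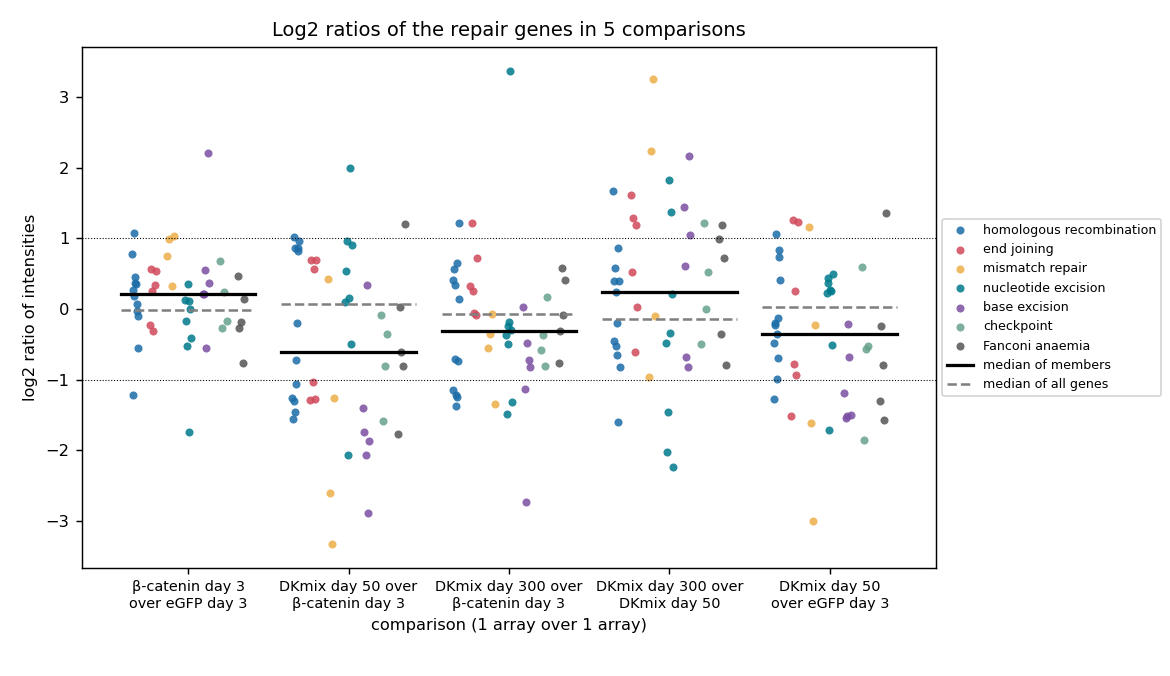
Log2 ratios of the measured repair genes (1 point per gene, coloured by repair group) in 5 comparisons of 1 array with 1 array. Solid bars are the medians of the repair genes, dashed bars those of all genes, and dotted lines mark 2-fold. The solid bar lies farthest below the dashed one for DKmix day 50 over β-catenin day 3 (-0.61 against 0.07).

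Only Apex1 had both DKmix values at least 2-fold below both day 3 values (1 of 45 genes, 2.22%, background 2.68%), and no repair gene lay above in that way (0 of 45, background 2.78%). The group departed from all genes in a dip on a single array. DKmix day 50 lay at least 2-fold below each of the other 3 arrays for 7 of 45 genes, 15.6% against a background of 3.71%. These 7 were Xrcc4, Msh6, Pms2, Ercc2, Ogg1, Parp2 and Atr, from 5 of the 7 groups. Pms2, Ercc2 and Atr were below the floor there. Second probe sets of Xrcc4, Pms2 and Ogg1 went the opposite way against β-catenin day 3. The dip was not particular to repair genes. Of 19 S phase and mitosis genes, 68.4% were lower at day 50 than on β-catenin day 3 (repair genes 42.2%, background 15.7%). The DKmix day 50 array also had the highest Gapdh and β-actin ratios, 4.96 and 3.41. DKmix day 300 was at least 2-fold below each other array for Xpc and Ddb2 (4.44%, background 2.81%) and above for Ercc5 (2.22%, background 3.99%). No repair gene stood out upward at DKmix day 50 (background 5.03%) or on eGFP day 3 in either direction (backgrounds 3.14% above and 2.07% below). On β-catenin day 3, Exo1 stood above each other array (2.22%, background 2.40%) and Ercc5 below (2.22%, background 1.18%).

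Leaving out the DKmix day 50 array, Xrcc3, Xpc, Ddb2 and Apex1 were at least 2-fold lower at day 300 than on both day 3 arrays (4 genes, background 6.47%) and 3 genes were higher (background 7.74%). Leaving out the day 300 array, 11 genes were lower at day 50 than on both day 3 arrays (background 7.55%) and 1 was higher (background 9.04%). Leaving out eGFP day 3 gave 6 lower genes (background 6.29%), namely Brca2, Rad54l, Mre11a, Exo1, Ung and Apex1, and 1 higher (background 4.95%). Leaving out β-catenin day 3 gave Apex1 alone as lower (background 6.88%) and 2 as higher (background 5.69%).

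The pairs DKmix day 300 with β-catenin day 3 and DKmix day 50 with eGFP day 3 share no array, and within each pair the Gapdh ratios were alike. The β-actin ratios were alike in the first pair (1.20 and 1.32) but not in the second (3.41 and 1.83). Brca2, Ung and Apex1 were at least 2-fold lower in both pairs (3 of 45 genes, 6.67%, background 5.33%) and Xrcc5 higher in both (2.22%, background 5.47%). Across the 45 genes the log2 ratios of the pairs had a Pearson correlation of 0.287, against 0.402 over 11184 genes. The points share the 4 arrays, genes are not independent replicates, and the value is a description.

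**Figure D3:**
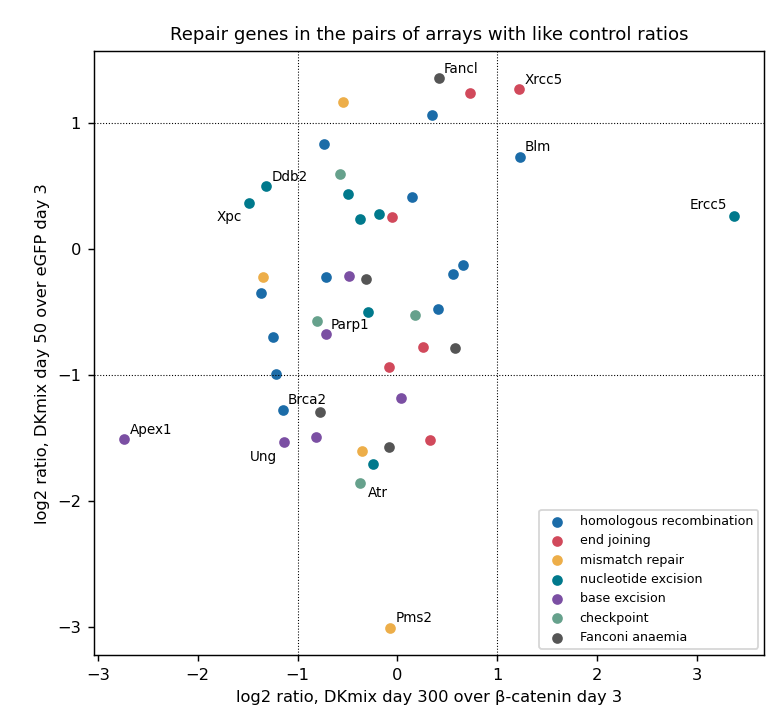
Each point is a repair gene, with its log2 ratio of DKmix day 300 over β-catenin day 3 on the horizontal axis and of DKmix day 50 over eGFP day 3 on the vertical axis; dotted lines mark 2-fold. Brca2, Ung and Apex1 lie in the lower left corner, Xrcc5 in the upper right, Pms2 is low in the vertical pair only and Ercc5 high in the horizontal pair only.

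The promoters of the 4 genes that passed 2-fold the same way in both pairs, and of Ercc5, which had the widest span over the arrays once the floor was applied, are shown as the sequence context of these values. Each is a RefSeq window on GRCm38.p6 from 250 bases before to 50 after an annotated start, read 5′ to 3′ along the gene. That start is not always the first base of the RefSeq gene. The genes Brca2 and Ercc5 begin at 150522297 and 44146948, upstream of their whole windows. Ung and Xrcc5 begin at 114130366 and 72307417, inside their windows but upstream of the start used. Capitals mark E2F core matches (the letters TTCCCGC, or else TTGGCGC, or else TTCGCGC, or else TTGCCGC, a motif family bound by the cell cycle factors E2F) and CCAAT boxes (CCAAT, bound by NF-Y), on either strand.
Apex1, chr14:50924699-50924998, + strand: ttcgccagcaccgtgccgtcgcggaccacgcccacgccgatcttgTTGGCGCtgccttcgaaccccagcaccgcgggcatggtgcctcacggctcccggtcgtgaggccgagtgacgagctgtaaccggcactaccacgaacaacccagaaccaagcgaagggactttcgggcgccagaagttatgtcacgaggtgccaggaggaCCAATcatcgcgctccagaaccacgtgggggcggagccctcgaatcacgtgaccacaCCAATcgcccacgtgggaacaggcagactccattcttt
Brca2, chr5:150522371-150522670, + strand: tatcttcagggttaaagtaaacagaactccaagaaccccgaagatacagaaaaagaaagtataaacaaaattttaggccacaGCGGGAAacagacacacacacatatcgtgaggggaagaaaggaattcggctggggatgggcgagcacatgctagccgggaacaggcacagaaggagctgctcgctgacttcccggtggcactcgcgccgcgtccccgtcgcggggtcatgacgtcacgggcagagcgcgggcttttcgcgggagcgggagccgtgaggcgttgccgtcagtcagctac
Ung, chr5:114130185-114130484, + strand: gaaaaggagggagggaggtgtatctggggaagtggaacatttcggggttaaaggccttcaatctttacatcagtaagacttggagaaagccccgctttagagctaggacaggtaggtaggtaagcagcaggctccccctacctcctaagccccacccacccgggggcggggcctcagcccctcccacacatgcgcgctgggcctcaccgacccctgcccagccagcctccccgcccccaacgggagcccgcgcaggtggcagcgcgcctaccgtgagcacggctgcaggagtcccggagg
Xrcc5, chr1:72307171-72307470, + strand: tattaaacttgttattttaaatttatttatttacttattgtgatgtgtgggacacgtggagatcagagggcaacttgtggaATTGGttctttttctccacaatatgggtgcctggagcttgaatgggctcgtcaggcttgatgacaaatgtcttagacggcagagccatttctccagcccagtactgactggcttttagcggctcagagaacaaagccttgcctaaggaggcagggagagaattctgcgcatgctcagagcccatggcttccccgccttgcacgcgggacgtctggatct
Ercc5, chr1:44147494-44147793, + strand: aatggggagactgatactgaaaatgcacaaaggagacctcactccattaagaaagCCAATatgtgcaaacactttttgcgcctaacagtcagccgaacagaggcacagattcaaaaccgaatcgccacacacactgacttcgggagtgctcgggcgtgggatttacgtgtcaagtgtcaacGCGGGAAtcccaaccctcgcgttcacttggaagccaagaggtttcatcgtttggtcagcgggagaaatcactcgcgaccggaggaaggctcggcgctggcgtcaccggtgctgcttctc
Counted from the start used for each window, Apex1 had an E2F match at -205 and CCAAT boxes at -45 and 12. Brca2 had an E2F match at -168, Ercc5 an E2F match at -69 and a CCAAT box at -195, Xrcc5 a CCAAT box at -169, and the Ung window held neither.

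Of the 46 genes, 37 had a promoter window in the RefSeq table. An E2F match was present in 20 of the 37 (54.1%), against 10.9% of all 27025 genes with a window, and a CCAAT box in 20 (54.1%, all genes 41.1%). The CHR element of genes of late cell cycle phases (TTTGAA, either strand) was in 2 (5.41%, all genes 20.2%). Among the genes lower at DKmix day 50 than on β-catenin day 3 the share with an E2F match was 9 of 17 (52.9%), close to that of the whole set. The share over all genes includes genes outside the series, and base composition was not matched, so the contrast with it only describes these windows. A match is a string of letters and not a shown binding site.

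Homologous recombination genes were mixed, with 5 of 12 measured genes lower at DKmix day 50 than on β-catenin day 3 (background 15.7%) and 1 higher (background 16.1%). At day 300, 4 were lower (background 14.4%) and 1 higher (background 14.0%). Brca1, which promotes resection of broken ends, read 366.6, 212.9, 153.2 and 485.6. It was 2.39-fold lower at day 50 than on β-catenin day 3 and 3.17-fold higher again at day 300. Another 2 probe sets of Brca1 showed the same dip, at 241.5, 111.1, 97.1 and 302.1 and at 182.0, 66.6, 18.8 and 190.5, and the dimmest was above the floor at day 50 only (47.0, 32.9, 65.8 and 6.9). Brca2, which acts on the resected single-stranded DNA, read 257.4, 213.0, 87.9 and 116.0, so that both DKmix values lay below both day 3 values. It was 2.93-fold lower than β-catenin day 3 at day 50 and 2.22-fold lower at day 300. Palb2, the bridge between the BRCA proteins, read 12.4, 112.2, 97.9 and 71.2 and was low on the β-catenin day 3 array alone, at least 2.32-fold below eGFP.

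Rad54l, a DNA motor protein of recombination, read 600.6, 436.5, 219.3 and 258.8. Both DKmix values lay below both day 3 values, and the ratios to β-catenin day 3 were 2.74-fold and 2.32-fold lower. Against eGFP, day 50 was 1.99-fold lower, short of 2-fold. In each of its 3 other probe sets too, both DKmix values lay below both day 3 values. Mre11a, the nuclease of the complex that first binds broken ends, read 455.8, 355.1, 219.1 and 191.9, lower at both DKmix times by 2.08-fold and 2.38-fold against β-catenin day 3. The other subunits of that complex took separate courses. Rad50, its ATPase, read 430.1, 409.2, 374.5 and 678.8 and passed 2-fold in no comparison, while Nbn, its regulatory subunit, read 343.8, 352.1, 626.6 and 206.4 and was 3.04-fold lower at day 300 than at day 50.

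Rad51c, which acts in recombination, read 118.9, 56.3, 21.8 and 72.6, so that β-catenin day 3 was 2.11-fold above eGFP and at least 2.46-fold lower at day 50 than on β-catenin day 3. Xrcc3, its partner in a complex that acts late in recombination, read 169.7, 131.5, 103.3 and 65.6, and was 2.59-fold lower at day 300 than on β-catenin day 3. Its second probe set read 83.6, 6.0, 92.0 and 76.1 and gave no such difference. Rad52, an annealing protein, read 67.6, 59.2, 123.6 and 85.7, and its 2.09-fold excess at day 50 over eGFP was not seen by its second probe set (25.2, 65.1, 18.7 and 63.9).

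Blm, a RecQ helicase that dissolves recombination intermediates, read 469.4, 501.8, 833.0 and 1096, higher on both DKmix arrays than on both day 3 arrays and 2.33-fold higher at day 300 than on β-catenin day 3. Wrn, another RecQ helicase, read 80.7, 118.0, 157.4 and 89.2 and passed 2-fold in no comparison, and its second probe set was lowest at day 50 (67.9, 166.3, 5.9 and 85.3).

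End joining genes were at least 2-fold lower at DKmix day 50 than on β-catenin day 3 for 3 of 6 (background 15.7%), with 0 of 6 lower at day 300 (background 14.4%). Xrcc4, the scaffold of the ligase, read 146.2, 171.7, 59.9 and 183.9, a dip at day 50 to between 2.44-fold and 3.07-fold below the others. Its second probe set, nearer the floor, read 49.0, 96.0, 62.2 and 27.4 and did not show it. Prkdc, the kinase that holds broken ends, read 234.4, 185.3, 96.6 and 221.0, and was 2.43-fold lower at day 50 than on β-catenin day 3. Lig4, the ligase, stayed between 51.8 and 79.3.

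The Ku subunits, which form the ring around a broken end, moved apart. Xrcc6 (Ku70) read 325.2, 273.6, 159.4 and 389.6 and was lowest at day 50, 2.04-fold below β-catenin day 3. Its dim second probe set was above the floor at day 50 only (4.7, 4.1, 73.3 and 34.7). Xrcc5 (Ku80) read 123.5, 83.0, 199.6 and 287.9 and was higher on both DKmix arrays than on both day 3 arrays, by 2.33-fold at day 300 over β-catenin day 3 and 2.40-fold at day 50 over eGFP. Trp53bp1, which favours end joining over resection, read 208.9, 143.5, 338.7 and 344.7, higher on both DKmix arrays and 2.36-fold higher at day 50 than with eGFP. Its second probe set went further at day 50 (161.8, 73.7, 684.5 and 287.8), and its 4 dimmer probe sets took no common course.

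Of the mismatch repair genes, 3 of 4 were at least 2-fold lower at DKmix day 50 than on β-catenin day 3 (background 15.7%). Msh6, which recognises mispaired bases as part of a dimer, read 571.6, 287.0, 94.2 and 446.3. It was 6.07-fold lower at DKmix day 50 than on β-catenin day 3, 3.05-fold lower than on eGFP, and 4.74-fold higher again at day 300. Pms2, the nicking subunit, read 485.4, 388.3, 22.6 and 461.0, below the floor at day 50 only and at least 10.0-fold lower than on β-catenin day 3. The other probe sets of Pms2 were dim and differed from each other, at 50.1, 61.4, 112.9 and 36.1 and at 47.2, 99.0, 5.4 and 5.3. Msh3, the alternative partner in recognition, read 81.0, 11.4, 108.3 and 55.5, low on the eGFP array alone, and at least 2.24-fold higher at day 50 than there.

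Exo1, the exonuclease that removes the mispaired strand, read 284.9, 138.8, 119.1 and 111.7. It was 2.05-fold higher on β-catenin day 3 than on eGFP and 2.55-fold lower at day 300 than on β-catenin day 3. Its second probe set read 114.2, 111.0, 37.4 and 202.7 and put the lowest value at day 50 instead.

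Nucleotide excision genes took separate courses. Ercc5, the nuclease that cuts on the 3′ side of a lesion (XPG), read 56.2, 187.0, 223.8 and 581.2. It was 3.33-fold lower on the β-catenin than on the eGFP day 3 array, and 3.98-fold and 10.3-fold higher at DKmix day 50 and day 300 than on β-catenin day 3. Against eGFP day 3 the day 50 log2 ratio was 0.26, and with a floor at percentile 75 the log2 ratios to β-catenin day 3 were 2.11 instead of 3.37 at day 300 and 0.73 instead of 1.99 at day 50. The other Ercc5 probe set was below the floor on all 4 arrays.

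Xpc and Ddb2, the damage sensors of this group, were lowest at day 300. Xpc read 316.5, 357.1, 460.4 and 113.1, which made day 300 2.80-fold lower than β-catenin day 3 and 4.07-fold lower than day 50. Ddb2 read 120.3, 160.6, 226.6 and 31.7, at day 300 at least 2.49-fold lower than on β-catenin day 3 and at least 4.69-fold lower than at day 50, but its second probe set, at 59.1, 74.4, 89.2 and 116.7, was highest at day 300. Ddb1, the partner of DDB2 in a ubiquitin ligase, varied little (1288, 1292, 911.8 and 1054).

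XPC is under p53 control in many cell types. Of 9 other p53 target genes measured, 6 were at least 2-fold higher at day 300 than on β-catenin day 3 (background 14.0%) and 2 lower (background 14.4%). Of the 6, Trp53inp1 rose most (5.23-fold) and Cdkn1a, the p21 cell cycle inhibitor, least (2.28-fold). Cdkn1a read 2732, 2974, 2981 and 6217. The lower were Gadd45a (163.9, 129.8, 162.9 and 57.3) and Perp (130.9, 272.5, 76.9 and 14.2). The part of p53 in the Xpc values was not tested.

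Of the TFIIH helicases that open DNA around a lesion, Ercc2 (XPD) read 202.0, 157.9, 41.4 and 171.1, below the floor at day 50 only and at least 4.18-fold lower than on β-catenin day 3, whereas Ercc3 (XPB) stayed between 316.4 and 399.8. Ercc1, which anchors the 5′ nuclease, read 360.9, 518.7, 700.4 and 256.1 and was 2.73-fold lower at day 300 than at day 50. Its second probe set, at 150.3, 122.1, 208.1 and 228.1, did not show that difference. Xpa, which verifies the lesion, stayed between 103.4 and 143.6.

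Of the base excision genes, 5 of 6 were at least 2-fold lower at DKmix day 50 than on β-catenin day 3 (background 15.7%) and 4 of 6 lower than on eGFP (background 15.0%). Apex1, the endonuclease that cuts at sites that have lost their base, read 1277, 870.0, 305.3 and 191.4. It was 4.18-fold lower at day 50 and 6.67-fold lower at day 300 than on β-catenin day 3, and 2.85-fold lower at day 50 than on eGFP. In the 2 other Apex1 probe sets both DKmix values likewise lay below both day 3 values, at 1880, 992.1, 184.7 and 158.6 and at 667.4, 743.6, 205.6 and 121.5. Over the 9 alternatives that could change it, the log2 ratio of day 300 to β-catenin day 3 lay between -3.78 and -2.42. The probe set used for Apex1 is of a type (suffix _x_at) that may cross-hybridise, but the second is not.

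Ung, the glycosylase that removes uracil from DNA, read 162.2, 140.1, 8.3 and 73.7, at least 3.36-fold lower at day 50 and 2.20-fold lower at day 300 than on β-catenin day 3. With its signals this near the floor, a floor at percentile 75 brought the day 300 log2 ratio from -1.14 to -0.27. Ogg1, the glycosylase for oxidised guanine, read 136.2, 117.1, 51.5 and 139.5, a dip at day 50, but its second probe set read 26.3, 9.8, 81.8 and 47.0, the reverse.

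The poly(ADP-ribose) polymerases sense strand breaks. Parp1 read 1569, 340.5, 212.9 and 952.5, high on the arrays with low Gapdh ratios and low on those with high ones. It was 4.61-fold higher on β-catenin day 3 than on eGFP and 7.37-fold higher than at day 50. The second probe set went the same way with smaller steps (400.9, 191.8, 156.1 and 296.3), and the next was lowest at day 300 (218.8, 183.1, 163.6 and 93.4). The part of RNA quality in the Parp1 values was not tested. Parp2 read 1021, 788.3, 279.6 and 578.1 and was lower on both DKmix arrays, by 3.65-fold at day 50 against β-catenin day 3. Xrcc1, the scaffold for the ligase step, read 226.8, 332.5, 285.9 and 162.2 and passed 2-fold in no comparison.

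**Figure D4:**
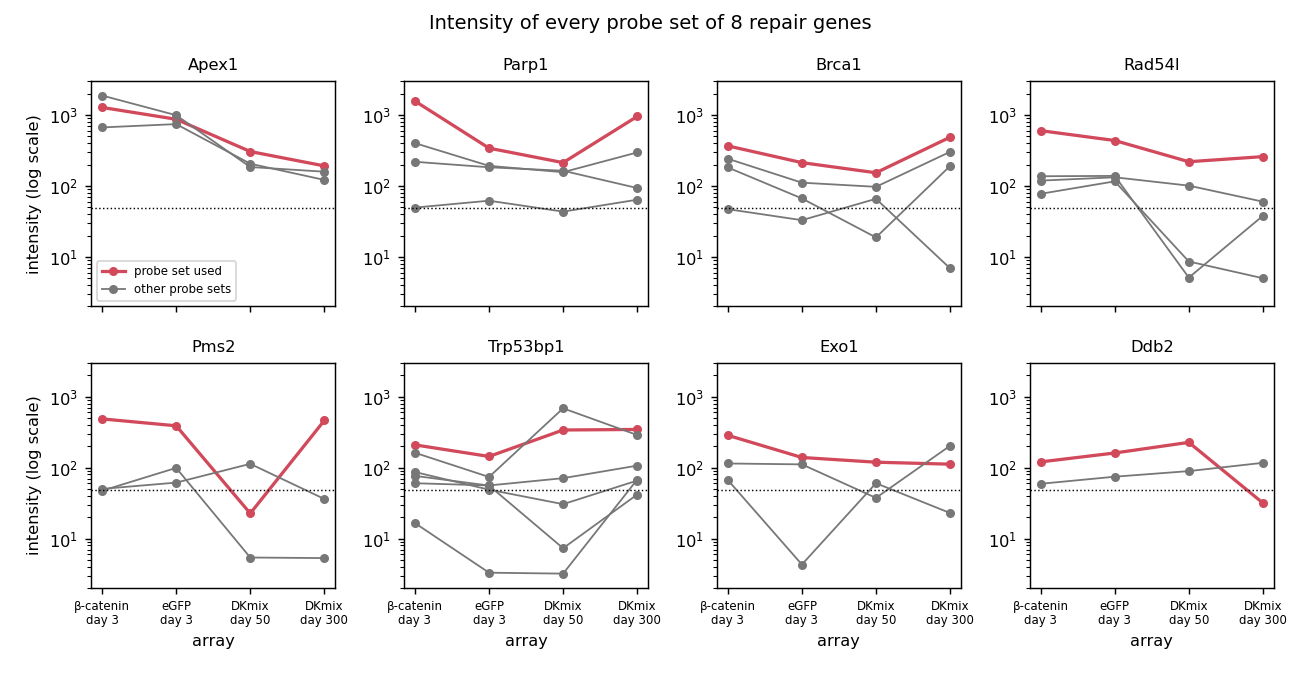
Intensity on a log scale of every probe set of 8 repair genes on the 4 arrays (1 array per position; lines join the values of a probe set). Red is the probe set used, grey the others, and the dotted line the floor of 48.3. The 3 Apex1 probe sets run together, whereas Pms2, Exo1 and Ddb2 hold probe sets that run apart.

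By the probe sets used, checkpoint kinases varied little apart from Atr. Atr, the kinase activated by stalled forks, read 145.0, 175.1, 40.9 and 112.2 and was below the floor at day 50 only, at least 3.00-fold lower than on β-catenin day 3 and at least 3.62-fold lower than on eGFP. A second Atr probe set was likewise lowest there (141.5, 75.4, 26.0 and 85.9). Atm, the kinase for double-strand breaks, stayed between 211.8 and 339.7. Chek1 and Chek2, the effector kinases, stayed between 90.8 and 158.9 and between 174.2 and 251.3. The second Chek1 probe set varied more, at 119.1, 40.1, 162.9 and 55.8, and was highest at day 50.

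Fanconi anaemia genes moved in both directions at day 50. Fanca, of the core complex, read 330.5, 238.1, 97.0 and 193.7, 3.41-fold lower at day 50 than on β-catenin day 3, but its second probe set read 107.4, 49.1, 102.2 and 28.4 and did not show that difference. Fancl, the ubiquitin ligase of that complex, went the other way at 223.3, 202.0, 516.2 and 297.3, and was 2.31-fold higher than on β-catenin day 3 and 2.56-fold higher than on eGFP. Its dim second probe set was above the floor on eGFP only (4.1, 58.6, 37.6 and 10.2). Fancd2, the protein that FANCL modifies, read 135.0, 152.6, 88.5 and 201.0 and was 2.27-fold higher at day 300 than at day 50. Fancg read 84.3, 143.7, 47.7 and 79.7, at least 2.98-fold lower at day 50 than on eGFP, and its second probe set went the other way (22.1, 13.6, 152.9 and 114.6). Fancc stayed between 67.9 and 102.0, but its second probe set was low on β-catenin day 3 (22.9, 91.3, 119.9 and 102.4).

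Repair genes outside the list of 47, from the same groups and from lesion bypass, gave smaller departures from all genes. Of 72 such genes, 16 of 68 measured were at least 2-fold lower at DKmix day 50 than on β-catenin day 3 (23.5%, background 15.7%) and 11 higher (16.2%, background 16.1%), with a median log2 ratio of -0.44. At day 300, 12 of 72 were lower (16.7%, background 14.4%) and 9 higher (12.5%, background 14.0%). Dna2, a nuclease and helicase of end resection, read 429.9, 845.1, 109.4 and 49.5, and its DKmix values lay below both day 3 values. Hus1, of the clamp that activates ATR, read 291.6, 104.2, 84.6 and 74.3. H2ax, the histone marked at breaks, read 1666, 1238, 479.2 and 1179, with the day 50 dip described above. Rad51d, of the recombination group, was highest at day 300, at 101.4, 151.5, 242.0 and 626.2.

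Cell cycle genes dipped on the same array as the repair genes. Of 19 genes of S phase and mitosis, 13 were at least 2-fold lower at DKmix day 50 than on β-catenin day 3 (68.4%, background 15.7%) and 0 higher, and 14 of 19 were lower than on eGFP (73.7%, background 15.0%). At day 300, 6 of 19 were lower than on β-catenin day 3 (31.6%, background 14.4%), and 9 of 18 were higher than at day 50 (50.0%, background 15.1%). Plk1, a mitotic kinase, read 1042, 906.4, 75.5 and 967.7, a course like that of Pms2 and Msh6. Mcm5, of the replicative helicase, read 3058, 3958, 1733 and 626.1, lowest at day 300. The part of these genes, of the Gapdh ratio and of the cell type markers in the repair gene values was not tested.

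**Figure D5:**
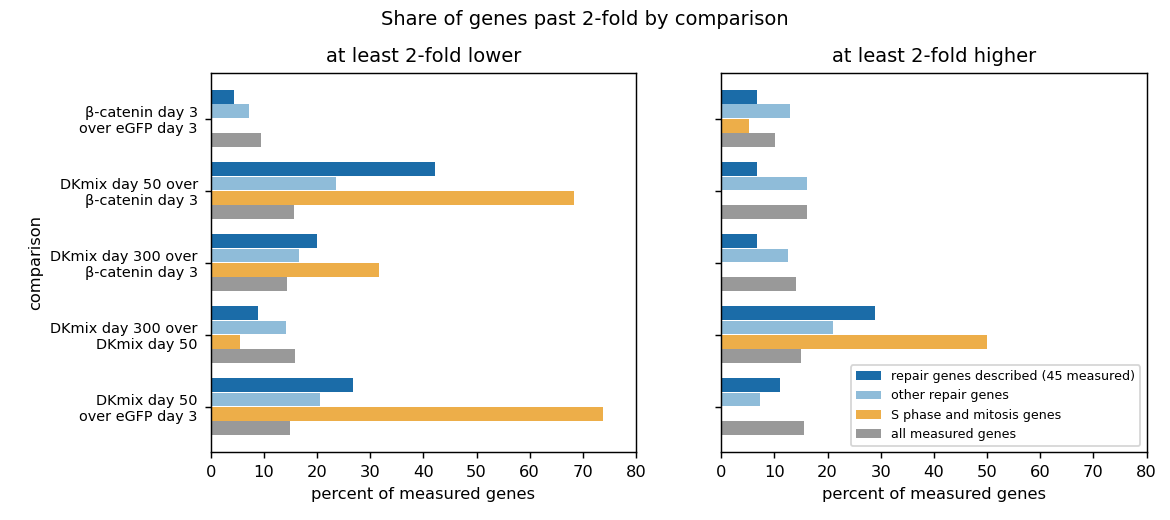
Bars give the percent of measured genes at least 2-fold lower (left) or higher (right) in each comparison of 1 array with 1 array, for the repair genes described, the other repair genes, the S phase and mitosis genes and all measured genes. At DKmix day 50 over β-catenin day 3 the lower shares were 42.2%, 23.5%, 68.4% and 15.7%.

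Agreement between probe sets of a gene was the only internal error measure. Over all genes with 2 probe sets above the floor, the SD of a log2 ratio between them, per probe set, was 0.80 for DKmix day 50 over β-catenin day 3 (3465 genes) and between 0.63 and 0.92 over the 5 comparisons. Over the repair genes it lay between 0.53 and 0.71 (11 to 14 genes). It covers probe differences and not differences between cultures, and a 2-fold ratio is a log2 ratio of 1. Of the repair genes past 2-fold at day 50 against β-catenin day 3, 12 had a measured second probe set, which had the same direction for 8 and the opposite for Xrcc4, Xrcc6, Pms2 and Ogg1. At day 300 against β-catenin day 3 it was 4 of 6, with Exo1 and Ddb2 opposite. Against day 50 it was 4 of 10, and for day 50 against eGFP 4 of 10.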

How the data were processed

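Each of the 4 samples was hybridised to 1 Affymetrix array with biotin-labelled cRNA, per the labels' protocols. The authors deposited linear signal intensities per probe set, for which the submitters' processing notes name MAS5. Its version is not given in the sources used here, and detection calls were not used here. The deposited intensities had a trimmed mean (2% off each end) of 150.0 on each array, so arrays were not rescaled.

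Of 45101 probe sets, 34958 carried 1 gene symbol in the platform annotation, 932 several and 9211 none. Only the first kind was used, with 1 probe set per gene, and all 46 genes matched RefSeq by Entrez ID. Log2 ratios were taken after a floor at the pooled median (48.3), in Python 3.11.15 with numpy 2.4.6 and pandas 2.3.3. The steps were also run on simulated data. The planted changes exceeded 2-fold, in genes far above the floor, with noise below the spread seen between probe sets. That run therefore says nothing about calls near 2-fold or near the floor. The precision rests on single arrays, and no count or depth applies.

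Every member past 2-fold is named with its 4 intensities. Of the other repair, cell cycle and p53 lists, up to 4 genes per list and comparison with the largest ratios could be named. H2ax and the others named from these lists follow that rule. Cdkn1a, Gadd45a and Perp do so by comparisons other than day 300 over β-catenin day 3. The markers Kit, Tpsab1 and Flt3 were not named by this rule. The members and lists were chosen with earlier results of these data known. Alternatives changed the scaling, the floor, the probe set rule and the fold.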

Additional observations from a re-analysis of the deposited data

Results flagged for a closer look

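Some probe sets that the comparisons did not use stood at least 2-fold above the eGFP day 3 array where the probe set used for the same gene did not. For β-catenin day 3 over eGFP day 3, another 2 probe sets of Brca1 had log2 ratios of 1.12 (241.5 against 111.1) and 1.45 (182.0 against 66.6), and the one used 0.78, so that all 3 pointed the same way. A second probe set of Trp53bp1 had 1.13 (161.8 against 73.7; the one used 0.54), of Chek1 1.30 (119.1 against 40.1, a bound; used 0.24) and of Fanca 1.13 (107.4 against 49.1; used 0.47). For DKmix day 50 over eGFP day 3 the second probe sets of Chek1 (1.75, a bound, 162.9 against 40.1), Fanca (1.06, 102.2 against 49.1) and Fancg (1.66, a bound, 152.9 against 13.6) went against the ones used, which had -0.57, -1.30 and -1.57. Most of these probe sets read close to the floor on the eGFP array.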

How the results depend on the processing

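Of 73 ratios of repair genes past 2-fold, 66 kept their direction under every alternative that gave them a value. There were 9 alternatives of scaling, floor and probe set, and 628 ratios in all, since a floor at percentile 75 and other probe set rules left some genes without one. Reversed log2 ratios came from other probe sets. With the mean of all probe sets these were Fancg (0.82), Ogg1 (0.43) and Rad52 (-0.36) for DKmix day 50 over eGFP day 3, and Ogg1 (0.12) and Xrcc6 (1.16) for day 50 over β-catenin day 3. With plain _at probe sets they were Ercc1 (0.13) and Ogg1 (-0.76) for day 300 over day 50, Ogg1 (0.76) for day 50 over either day 3 array and Rad52 (-0.43) for day 50 over eGFP. In what follows the comparisons are day 50 over β-catenin day 3 (A), day 300 over β-catenin day 3 (B), day 300 over day 50 (C), day 50 over eGFP day 3 (D) and β-catenin over eGFP day 3 (E), with medians as log2 ratios. On the hybridisation control scale the medians were -1.42 (A), -1.34 (B), -0.83 (D) and 0.60 (E), with 1 (A), 1 (B), 0 (D) and 7 (E) genes higher, 30 (B) and 22 (D) lower, and 9 with both DKmix values below both day 3 values. The shares higher were 2.17% (A), 2.17% (B), 0.0% (D) and 15.2% (E), and those lower 65.2% (B) and 47.8% (D). All genes moved too on this scale, with 4.92% (A), 4.17% (B), 7.56% (D) and 21.4% (E) higher. Of all genes, 45.1% (B) and 27.4% (D) were lower. Scaling to equal medians gave -0.76 (A), 0.0040 (B, reversed), 0.71 (C) and -0.48 (D). It put 3 genes higher (D, 6.67%, all genes 12.6%) and 5 lower (B, 11.1%, all genes 9.55%). A floor at percentile 75 gave -0.22 (A) and -0.18 (D). Higher were 1 (A, 2.63%, all genes 14.0%), 7 (C, 21.9%, all genes 15.9%) and 2 (D, 5.41%, all genes 13.2%). Lower were 11 (A, 28.9%, all genes 15.8%), 5 (B, 14.3%, all genes 12.7%), 4 (D, 10.8%, all genes 14.6%) and 0 (E, all genes 7.08%). A floor at percentile 25 and no floor each gave -0.49 (D) and 2 genes below in both DKmix cultures. The mean of all probe sets gave -0.35 (A) and 0.0085 (D, reversed), and 2 genes above and 3 below in both cultures. Higher were 5 (C, 12.5%, all genes 14.2%) and lower 12 (A, 30.8%, all genes 15.7%). Plain _at probe sets gave -0.20 (A), -0.085 (B) and -0.22 (D), with 5 lower (B, 12.8%, all genes 13.6%). At 1.5-fold, 11 (A), 5 (B), 8 (D) and 7 (E) were higher, 15 (B) and 11 (C) lower (all genes 21.4% to 29.3% and 21.8% to 31.2%), and 3 above and 5 below in both cultures. At 3-fold, 0 genes were below in both cultures. Higher were 1 (A, 2.22%, all genes 6.32%), 1 (B, 2.22%, all genes 6.65%), 6 (C, 13.3%, all genes 6.82%), 0 (D, all genes 6.04%) and 1 (E, 2.22%, all genes 3.14%). Lower were 9 (A, 20.0%, all genes 7.03%), 1 (B, 2.22%, all genes 5.4%), 4 (D, 8.89%, all genes 6.05%) and 1 (E, 2.22%, all genes 2.84%). Leaving out each array in turn, chosen after seeing the data, gave 1 to 3 genes above and 1 to 11 below. Over all genes the shares were 4.95% to 9.04% above and 6.29% to 7.55% below. The cause of these shifts was not tested. Lowess centring was not run for the count over both cultures. Except for leaving out arrays, the share of all genes in that count was not computed under the alternatives. Those counts therefore carry no background. No paired analysis was possible because each group had 1 array. Single arrays and signals near the floor limit every value.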

Other observations

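Genes of translesion synthesis, by which special polymerases copy past damaged bases, and of direct damage reversal belong to none of the 7 groups described above. Of 10 such genes, 4 were at least 2-fold higher at DKmix day 300 than on β-catenin day 3 (background 14.0%) and 1 lower (background 14.4%). At day 50, 3 of 9 measured were higher (background 16.1%) and 1 lower (background 15.7%). Polh, the polymerase that copies past ultraviolet lesions, read 41.6, 152.8, 305.1 and 295.8, low on the β-catenin day 3 array and highest in both DKmix cultures. Rev3l, the catalytic subunit of polymerase zeta, read 116.8, 171.5, 425.6 and 46.8, and Mad2l2, an accessory subunit of that polymerase, read 29.0, 111.0, 3.8 and 169.8, so these partners moved in opposite directions between the DKmix cultures. Polk, another lesion bypass polymerase, read 233.3, 202.0, 82.6 and 532.1. Mgmt, which removes alkyl groups from guanine, read 101.7, 83.1, 286.2 and 105.1, highest at day 50. No replicate or test stands behind these values.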
